A study of Mus musculus with 12 samples.

Results

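The antioxidant enzymes described here are 10 genes, Sod1, Sod2, Sod3, Cat, Gpx1, Gpx3, Gpx4, Prdx1, Gclm and Nqo1, chosen by name and read in adipose tissue of a mouse model of Bardet-Biedl syndrome. All 10 were found among the 53431 gene identifiers of the count table, and all 10 passed the filter on low counts that left 15968 genes for testing. The RNA-seq data comprise 12 libraries in 3 groups of 4. In the group labelled Bbs2-/- GCSi, Bbs2-/- mice received the glucosylceramide synthase inhibitor Genz667161 in their food, at 0.033% by weight, between the ages of 2 and 6 months. The group labelled Bbs2-/- had no treatment, and neither had the group labelled WT. Mice of every group were 6 months old at collection and had a mixed C57BL/6 x 129/SvJ background. BBS2 is a subunit of the BBSome, a complex for protein traffic to and from cilia, and glucosylceramide synthase makes the first sugar-bearing sphingolipid of the ganglioside pathway. Sex and fat depot were not named. Since no label ties a library to a mouse of its own, the p-values below reflect how far these libraries differ within a group, and part of that may be technical.

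Superoxide dismutases turn superoxide, the first product of electron leak and of NADPH oxidases, into hydrogen peroxide. Catalase, glutathione peroxidases and peroxiredoxins remove that peroxide, the last 2 kinds at the cost of thiols that glutathione and thioredoxin supply. Glutamate-cysteine ligase, whose modifier subunit is encoded by Gclm, makes the first product on the way to glutathione. Prdx1, Gclm and Nqo1 are known targets of the transcription factor NRF2, encoded by Nfe2l2, which the adaptor protein KEAP1 sends to degradation and which binds antioxidant response elements with small MAF partners. In adipose tissue the enzymes are present both in fat cells, which burn and store lipid, and in the immune cells among them.

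Totals ran from 16317865 to 20224200 estimated counts per library. Levels are given below as CPM, counts per 1e6 counts of a library scaled by the trimmed mean of M values (TMM). Counts of Bbs2 went against the labels: they averaged 61.5 ± 5.3 CPM in libraries labelled Bbs2-/- GCSi, 61.9 ± 9.41 CPM in those labelled Bbs2-/- and 12.5 ± 0.267 CPM in those labelled WT (SD, n = 4 each). The directions below therefore rest on the labels, which Bbs2 does not bear out, and a group's name used alone stands for the libraries so labelled. The fat cell gene Adipoq was high in every library, at 2570 to 4690 CPM in those labelled Bbs2-/- GCSi, 978 to 1050 CPM in those labelled Bbs2-/- and 2910 to 4890 CPM in those labelled WT. Some libraries also held RNA that fat cells do not make. The ciliated-cell gene Foxj1 had 154 and 140 counts in libraries 1 and 3 labelled Bbs2-/- GCSi, and 48 and 164 counts in libraries 1 and 4 labelled WT, against at most 2 in the others. The epididymis gene Crisp1 had 19876 counts in WT library 1.

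The 250 bases before the start site of Prdx1, Gclm, Sod1 and Nqo1 are shown because the genes in the text divide by how they move: Prdx1 and Gclm were higher in the libraries labelled Bbs2-/-, Sod1 was lower there, and Nqo1 was called in neither comparison. Sequences are from RefSeq on GRCm38.p6, 5′ to 3′ on the strand of the gene. Prdx1 lies at chr4:116685349-116685598 on the plus strand, Gclm at chr3:122245307-122245556 on the plus strand, Sod1 at chr16:90220512-90220761 on the plus strand and Nqo1 at chr8:107403206-107403455 on the minus strand. Capitals mark the core of the antioxidant response element, TGACNNNGC, which was found in Prdx1, Gclm and Sod1, each time on the other strand.
Prdx1: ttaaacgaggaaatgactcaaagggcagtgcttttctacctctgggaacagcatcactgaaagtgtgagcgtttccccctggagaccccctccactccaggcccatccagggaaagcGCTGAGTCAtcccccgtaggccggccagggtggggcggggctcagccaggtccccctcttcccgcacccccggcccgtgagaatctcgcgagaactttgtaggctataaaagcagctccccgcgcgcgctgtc
Gclm: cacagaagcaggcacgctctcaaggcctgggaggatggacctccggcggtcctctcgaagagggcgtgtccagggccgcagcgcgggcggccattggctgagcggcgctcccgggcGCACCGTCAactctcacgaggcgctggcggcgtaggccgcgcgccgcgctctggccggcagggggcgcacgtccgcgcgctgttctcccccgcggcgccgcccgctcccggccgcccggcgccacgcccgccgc
Sod1: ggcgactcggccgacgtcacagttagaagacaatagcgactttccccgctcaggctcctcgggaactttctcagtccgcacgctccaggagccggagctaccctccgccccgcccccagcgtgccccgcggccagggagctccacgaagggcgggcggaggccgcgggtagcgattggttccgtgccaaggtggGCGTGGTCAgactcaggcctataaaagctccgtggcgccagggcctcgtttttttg
Nqo1: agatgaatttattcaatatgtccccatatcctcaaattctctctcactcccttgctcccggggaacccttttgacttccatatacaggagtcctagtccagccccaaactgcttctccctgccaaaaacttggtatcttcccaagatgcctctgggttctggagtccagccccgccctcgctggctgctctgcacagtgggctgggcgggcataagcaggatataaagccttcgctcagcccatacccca

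Counted from the start site, the core stood at -133 to -125 in Prdx1, at -134 to -126 in Gclm and at -56 to -48 in Sod1. Of all 32851 promoter windows of this length searched on both strands, 10.2% held it. The other windows of the 10 genes did not hold these letters, and Sod3 has no entry. Sequence outside the windows was not searched, so a window without the core does not show that the gene lacks one. Gpx4 has 4 windows, so 12 windows of 9 genes were read. Neither a TATA box (TATAAA, in 12.4% of all windows), nor a CCAAT box (CCAAT, 33.8%), nor a GC box (GGGCGG, 32.7%) overlapped any of the 3 sites. A match is a description of the letters only. Sod1, with a core, and Gclm and Prdx1, with a core, moved in opposite directions in both comparisons below.

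**Figure D1:**
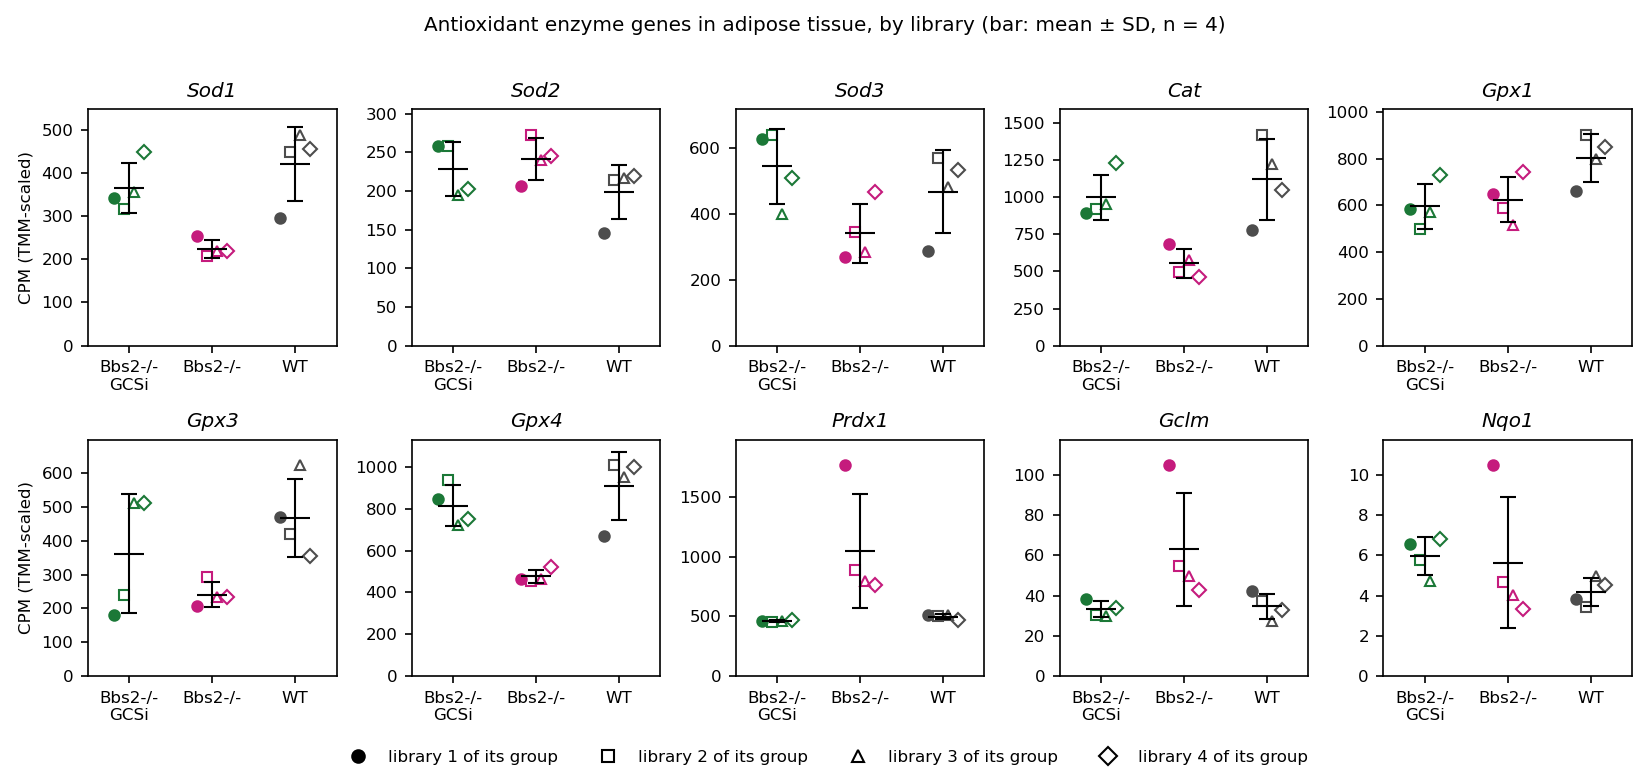
Level of each of the 10 genes in CPM (y axis, from 0, a scale of its own in each panel) in the 12 libraries (points, by library number) of the 3 groups (x axis), with the mean and SD of each group (bars, n = 4). Sod1, Cat and Gpx4 are lowest in the libraries labelled Bbs2-/-, with no library of theirs above the lowest of the other groups, and Prdx1 is highest there, at 1770 CPM in library 1.

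In libraries labelled Bbs2-/- against WT, 6 of the 10 genes differed: Sod1, Cat, Gpx3 and Gpx4 fell, and Prdx1 and Gclm rose. In libraries labelled Bbs2-/- GCSi against Bbs2-/-, Sod1, Sod3, Cat and Gpx4 rose, and Prdx1 and Gclm fell. Sod1, Cat, Gpx4, Prdx1 and Gclm, 5 of the 10, passed the test in both comparisons with opposite signs, and both comparisons use the same 4 libraries labelled Bbs2-/-. Between libraries labelled Bbs2-/- GCSi and WT, 0 of the 10 passed edgeR's quasi-likelihood test at a Benjamini-Hochberg adjusted p of 0.05. The genes were called against a background in which much of the transcriptome differed. Of the 15968 genes tested, 39.2% were called in Bbs2-/- against WT (19.6% higher and 19.7% lower), against 4 lower and 2 higher of the 10. The share was 37.2% in Bbs2-/- GCSi against Bbs2-/- (18.5% higher and 18.8% lower), against 4 higher and 2 lower of the 10. It was 0.257% in Bbs2-/- GCSi against WT (0.175% higher and 0.0814% lower), against 0 higher and 0 lower of the 10. The median log2 fold change of the 10 genes was -0.41 in Bbs2-/- against WT, beside -0.02 over all genes tested. It was 0.33 in Bbs2-/- GCSi against Bbs2-/-, beside 0.03, and -0.14 in Bbs2-/- GCSi against WT, beside -0.02.

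Genes were also counted by whether the groups overlapped. In Bbs2-/- against WT, 6 of the 10 genes had no overlap between the 4 and 4 libraries, beside 36.7% of all genes tested. The count was 5 of 10 in Bbs2-/- GCSi against Bbs2-/-, beside 39.7%, and 1 of 10 in Bbs2-/- GCSi against WT, beside 4.89%. Scaling by library size alone, without TMM, moved the share of higher genes among those called to 69.0% in Bbs2-/- against WT, against 49.9% with TMM, and to 35.5% in Bbs2-/- GCSi against Bbs2-/-, against 49.6%. The median of all genes then lay at 0.164 and -0.097 on the log2 scale. Under that scaling Sod1, Cat, Gpx4, Prdx1 and Gclm kept their direction and their call in both comparisons, while Gpx3 lost its call in Bbs2-/- against WT (-0.76, edgeR adjusted p = 0.0669) and Sod3 lost its call in Bbs2-/- GCSi against Bbs2-/- (0.54, adjusted p = 0.0814).

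**Figure D2:**
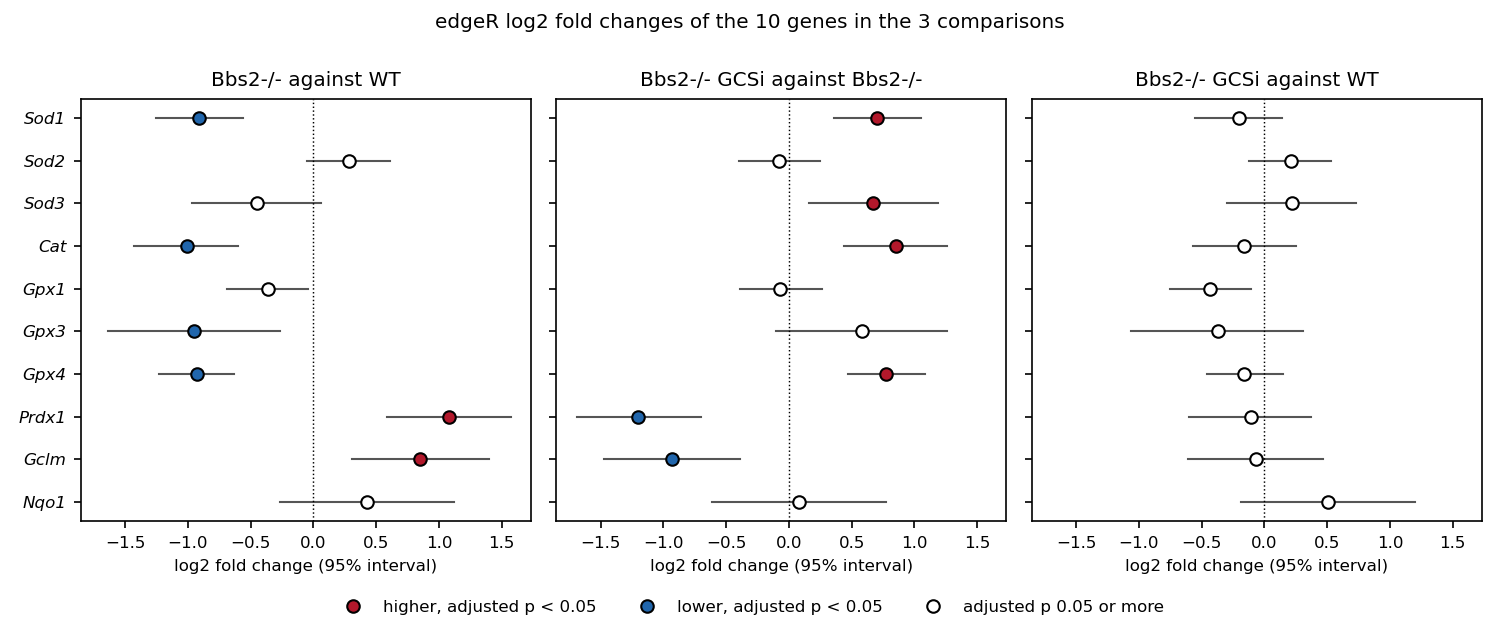
Log2 fold change of each gene (points) with its 95% interval (lines) in the 3 comparisons (panels), from the edgeR fit over all genes; blue and red mark genes past an adjusted p of 0.05. In Bbs2-/- against WT 4 genes are blue and 2 are red, 4 are red and 2 are blue in Bbs2-/- GCSi against Bbs2-/-, and none is coloured in Bbs2-/- GCSi against WT.

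Sod1 (ENSMUSG00000022982.10, chr16:90220754-90226329 on mm10) encodes the copper-zinc superoxide dismutase of the cytosol. It read 342, 316, 355 and 448 CPM in libraries 1 to 4 labelled Bbs2-/- GCSi, 253, 207, 218 and 219 CPM in those labelled Bbs2-/-, and 296, 447, 488 and 454 CPM in WT. Every library labelled Bbs2-/- was below every library of both other groups, and WT library 1 was the lowest of its group. Sod1 changed by -0.91 ± 0.16 on the log2 scale (log2 fold change ± SE) in Bbs2-/- against WT (edgeR adjusted p = 0.00106) and 0.70 ± 0.16 in Bbs2-/- GCSi against Bbs2-/- (adjusted p = 0.00459). Sod1 overlaps Scaf4 on the opposite strand, and no source used here says whether counting used strand. Scaf4 read 32.2 to 43.8 CPM, at most 17.7% of Sod1, and with the counts of both genes summed the log2 fold changes of Sod1 were -0.81 and 0.63.

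Sod2 (ENSMUSG00000006818.5, chr17:13006846-13040063), the manganese enzyme of mitochondria, gave no call. It read 259, 259, 195 and 203 CPM in libraries labelled Bbs2-/- GCSi, 207, 273, 240 and 245 CPM in those labelled Bbs2-/-, and 146, 214, 217 and 219 CPM in WT. The groups overlapped, and WT library 1 stood lowest of all 12. Its log2 fold change was 0.28 ± 0.15 in Bbs2-/- against WT (95% interval -0.05 to 0.61, edgeR adjusted p = 0.159). Scaling by library size alone brought it past the threshold, at 0.48 (adjusted p = 0.0243). It was -0.08 in Bbs2-/- GCSi against Bbs2-/- (interval -0.40 to 0.25).

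Sod3 (ENSMUSG00000072941.5, chr5:52363791-52371418), the dismutase secreted to the cell surface and matrix, read 627, 639, 398 and 507 CPM in libraries labelled Bbs2-/- GCSi. Those labelled Bbs2-/- had 269, 345, 284 and 465 CPM, and WT had 287, 568, 482 and 531 CPM. The groups overlapped in all comparisons. Sod3 rose by 0.67 ± 0.24 on the log2 scale in Bbs2-/- GCSi against Bbs2-/- (edgeR adjusted p = 0.0425). That call lies near the threshold. It was lost without library 1, 2 or 3 labelled Bbs2-/- (0.57, 0.66 and 0.57, adjusted p = 0.115, 0.0933 and 0.122), and without library 1, 2 or 4 labelled Bbs2-/- GCSi (0.61, 0.58 and 0.70, adjusted p = 0.0896, 0.102 and 0.0658). WT libraries enter this comparison only through the shared spread, the filter, the scaling and the set of genes adjusted over. The call was also lost without WT library 3 or 4 (edgeR adjusted p = 0.0545 and 0.0508) and without WT libraries 2 and 3 (adjusted p = 0.0517). With no filter on low counts it was lost too (0.68, adjusted p = 0.0545). In Bbs2-/- against WT it was -0.45 ± 0.24 (adjusted p = 0.148), and without WT library 1 it passed, at -0.63 (adjusted p = 0.0268).

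Cat (ENSMUSG00000027187.10, chr2:103453849-103485160) encodes catalase, which breaks down hydrogen peroxide in peroxisomes. It read 895, 920, 951 and 1230 CPM in libraries labelled Bbs2-/- GCSi, 685, 497, 575 and 461 CPM in those labelled Bbs2-/-, and 779, 1420, 1220 and 1050 CPM in WT. The 4 libraries labelled Bbs2-/- were below all 8 others. The level fell by 50.4% in Bbs2-/- against WT, a log2 fold change of -1.01 ± 0.19 (edgeR adjusted p = 0.00161). It was 1.80 times as high in Bbs2-/- GCSi as in Bbs2-/-, a log2 fold change of 0.85 ± 0.19 (adjusted p = 0.00455). By value these were the largest fall among the 10 genes in Bbs2-/- against WT and the largest rise in Bbs2-/- GCSi against Bbs2-/-. The order is not firm, since Gpx4 (-0.93 and then 0.77) and Sod1 (-0.91 and then 0.70) were close. Without WT library 2, Cat gave -0.87 and Gpx3 -1.0 in Bbs2-/- against WT.

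Other peroxisomal genes moved with Cat. Of 20 genes for peroxisome assembly and peroxisomal fat oxidation, Cat included, 14 fell and 0 rose in Bbs2-/- against WT, and 12 rose and 0 fell in Bbs2-/- GCSi against Bbs2-/-. Without WT libraries 2 and 3, 8 fell in Bbs2-/- against WT. The median log2 fold change was -0.50, beside -0.02 over all genes, and then 0.45, beside 0.03. Here and below, where a gene has log2 fold changes for both comparisons, Bbs2-/- against WT comes before Bbs2-/- GCSi against Bbs2-/-. List counts here and below stand beside 19.6% higher and 19.7% lower of all genes tested in Bbs2-/- against WT. In Bbs2-/- GCSi against Bbs2-/- those shares were 18.5% and 18.8%. Ehhadh, an enzyme of peroxisomal beta-oxidation, averaged 45.5 ± 1.88 CPM in Bbs2-/- GCSi, 19.1 ± 2.48 CPM in Bbs2-/- and 54.3 ± 16.3 CPM in WT (SD, n = 4 each). Its log2 fold change was -1.51 ± 0.18 in Bbs2-/- against WT (edgeR adjusted p = 0.000168). Pex3, which brings proteins into the peroxisomal membrane, changed by -0.85 and then by 0.90 (adjusted p = 0.000471 and 0.000347). Pex11a, which takes part in peroxisome division, rose by 0.97 in Bbs2-/- GCSi against Bbs2-/- (adjusted p = 0.000928).

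Gpx1 (ENSMUSG00000063856.7, chr9:108338903-108340343), the selenium-dependent peroxidase of cytosol and mitochondria, did not pass in any of the 3 comparisons. Levels were 586, 498, 570 and 729 CPM in libraries labelled Bbs2-/- GCSi, 647, 590, 516 and 744 CPM in those labelled Bbs2-/- and 663, 902, 798 and 848 CPM in WT. Both groups labelled Bbs2-/- overlapped WT through WT library 1, the lowest of its group. Gpx1 gave a log2 fold change of -0.36 ± 0.15 in Bbs2-/- against WT (edgeR adjusted p = 0.0723), and -0.43 ± 0.15 in Bbs2-/- GCSi against WT (unadjusted p = 0.0136 from edgeR, adjusted p = 0.324). It was -0.07 in Bbs2-/- GCSi against Bbs2-/- (95% interval -0.39 to 0.26). The first of these passed without WT library 1 (-0.44, adjusted p = 0.0303) and in DESeq2 (-0.36, adjusted p = 0.0408).

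Gpx3 (ENSMUSG00000018339.11, chr11:54902453-54910377) encodes the peroxidase secreted to plasma, which adipose tissue also makes. It was uneven within the treated group, at 179, 239, 511 and 513 CPM in libraries 1 to 4 labelled Bbs2-/- GCSi, beside 206, 292, 235 and 233 CPM in those labelled Bbs2-/- and 470, 421, 624 and 354 CPM in WT. Libraries 1 and 2 labelled Bbs2-/- GCSi lay within or below the range of Bbs2-/-, and libraries 3 and 4 lay within the range of WT. The log2 fold change was -0.95 ± 0.31 in Bbs2-/- against WT (edgeR adjusted p = 0.0313). It lost its call without WT library 3 (-0.78, adjusted p = 0.0925) and without library 1, 3 or 4 labelled Bbs2-/- (-0.88, -0.91 and -0.91, adjusted p = 0.0801, 0.0768 and 0.0774). The same held without WT libraries 2 and 3 (-0.76, adjusted p = 0.188) and with no filter on low counts (-0.93, adjusted p = 0.0734). The call was kept with DESeq2, with only the 2 groups compared and without any single library labelled Bbs2-/- GCSi. The highest library labelled Bbs2-/-, at 292 CPM, lay below the lowest of WT, at 354 CPM. Libraries labelled Bbs2-/- GCSi enter this comparison only through the shared spread, the filter, the scaling and the set of genes adjusted over. How far their uneven levels weigh on the call was not tested. Against Bbs2-/-, the libraries labelled Bbs2-/- GCSi gave 0.58 ± 0.31 (adjusted p = 0.168), and without library 1 labelled Bbs2-/- GCSi it was 0.81 (adjusted p = 0.0326).

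Gpx4 (ENSMUSG00000075706.10, chr10:80047166-80056439) encodes the peroxidase that reduces lipid peroxides in membranes and holds back ferroptosis. It read 849, 938, 723 and 753 CPM in libraries labelled Bbs2-/- GCSi, 464, 456, 465 and 524 CPM in those labelled Bbs2-/-, and 670, 1010, 952 and 1000 CPM in WT. No library labelled Bbs2-/- reached the lowest of the other 8. The level fell by 47.5% in Bbs2-/- against WT, a log2 fold change of -0.93 ± 0.14 (edgeR adjusted p = 0.000455), and was 1.71 times as high in Bbs2-/- GCSi as in Bbs2-/- (0.77 ± 0.14, adjusted p = 0.00132). The expressed pseudogene Gpx4-ps2 read 18.7 to 101 CPM, at most 10% of Gpx4, and may share reads with it. With both summed, the log2 fold changes were -0.95 and 0.79. Of the glutathione peroxidase list, 5 of 7 genes were tested, and Gpx3 and Gpx4 were the 2 that fell in Bbs2-/- against WT. All 5 fell without WT library 1, and 1 fell without WT library 3, without library 1, 3 or 4 labelled Bbs2-/-, and with scaling by library size alone.

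Prdx1 (ENSMUSG00000028691.12, chr4:116685544-116700822) encodes a cytosolic peroxiredoxin that reduces peroxide with electrons from thioredoxin. It read 465, 449, 461 and 466 CPM in libraries labelled Bbs2-/- GCSi, 1770, 889, 793 and 767 CPM in those labelled Bbs2-/-, and 514, 500, 510 and 470 CPM in WT. The libraries of Bbs2-/- were above all others, and its library 1 was far above its own group. Prdx1 changed by 1.08 ± 0.22 on the log2 scale in Bbs2-/- against WT (edgeR adjusted p = 0.00291) and -1.20 ± 0.23 in Bbs2-/- GCSi against Bbs2-/- (adjusted p = 0.0017). Without library 1 labelled Bbs2-/- these were 0.72 (adjusted p = 0.000536) and -0.83 (adjusted p = 0.000304). Prdx1 was the 1 gene of the 10 whose libraries labelled Bbs2-/- GCSi did not overlap WT, all 4 lying below it, with a log2 fold change of -0.11 (95% interval -0.60 to 0.37, adjusted p = 0.915). That interval and p use the spread shared by all 12 libraries, so library 1 labelled Bbs2-/- enters them. The SD was 7.74 CPM in Bbs2-/- GCSi, 478 CPM in Bbs2-/- and 19.8 CPM in WT.

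Among the 6 peroxiredoxins, 2 rose and 3 fell in Bbs2-/- against WT, and 2 rose and 2 fell in Bbs2-/- GCSi against Bbs2-/-. The 3 that fell became 1 without library 1 or 2 labelled Bbs2-/-, without WT library 3 or 4, without WT libraries 2 and 3, and with scaling by library size alone. Prdx4, the peroxiredoxin of the endoplasmic reticulum, averaged 27.4 ± 1.96 CPM in Bbs2-/- GCSi, 40.7 ± 4.3 CPM in Bbs2-/- and 27.7 ± 2.3 CPM in WT (SD, n = 4 each). It went the way of Prdx1, with log2 fold changes of 0.56 and -0.57 (edgeR adjusted p = 0.00106 and 0.000904). Prdx3, in mitochondria, changed by -0.63 and then 0.61 (adjusted p = 0.00243 and 0.0032), and Prdx6, which also has phospholipase activity, by -0.57 and then 0.73 (adjusted p = 0.0216 and 0.00623). With all libraries, Prdx1 and Prdx4 thus had the opposite sign to Prdx3 and Prdx6 in both comparisons.

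Gclm (ENSMUSG00000028124.15, chr3:122245557-122270732), the modifier subunit of glutamate-cysteine ligase, read 38.5, 30.5, 29.9 and 33.6 CPM in libraries labelled Bbs2-/- GCSi. Those labelled Bbs2-/- had 105, 54.7, 49.9 and 42.8 CPM, and WT had 42.1, 37.1, 27.5 and 32.7 CPM. All libraries labelled Bbs2-/- were above all others, though library 4 was only just above WT library 1. The log2 fold change was 0.85 ± 0.25 in Bbs2-/- against WT (edgeR adjusted p = 0.0174) and -0.93 ± 0.25 in Bbs2-/- GCSi against Bbs2-/- (adjusted p = 0.0123). Without library 1 labelled Bbs2-/- these were 0.50 (adjusted p = 0.0269) and -0.57 (adjusted p = 0.0154), and without WT library 3 the first was 0.76 (adjusted p = 0.0526). Gclm is uncertain for another reason. It overlaps Gm17494 on the opposite strand, which read 4.35 to 34.7 CPM, up to 106% of Gclm, and Gm6061 on its own strand. Summed with them, Gclm changed by 0.39 in Bbs2-/- against WT (adjusted p = 0.188) and by -0.64 in Bbs2-/- GCSi against Bbs2-/- (adjusted p = 0.0421).

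Gclc, the catalytic subunit of the same enzyme, gave no call. It averaged 33.8 ± 3.58 CPM in Bbs2-/- GCSi, 35.1 ± 13.8 CPM in Bbs2-/- and 32.0 ± 2.89 CPM in WT (SD, n = 4 each), with log2 fold changes of 0.13 and -0.05 (edgeR adjusted p = 0.659 and 0.872). Of 13 genes for glutathione synthesis and recycling, 4 rose and 1 fell in Bbs2-/- against WT, beside 19.6% and 19.7% of all genes tested. In Bbs2-/- GCSi against Bbs2-/-, 1 rose and 3 fell, beside 18.5% and 18.8%. The 4 that rose became 2 without WT library 3 and 1 without WT libraries 2 and 3, and the 3 that fell became 1 without the libraries with Foxj1 counts. Anpep, an aminopeptidase of the cell surface that can trim peptides of glutathione breakdown, averaged 42.3 ± 15.5 CPM in Bbs2-/- GCSi, 323 ± 60.3 CPM in Bbs2-/- and 65.5 ± 45.6 CPM in WT. It changed by 2.30 and then by -2.93 (adjusted p = 0.00182 and 0.00056). Oplah, which returns oxoproline to glutamate, went the other way, by -0.46 and then 0.62 (adjusted p = 0.00295 and 0.000524).

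Nqo1 (ENSMUSG00000003849.8, chr8:107388225-107403206), which reduces quinones in a single step that avoids radical forms, was the lowest of the 10 genes. It read 6.57, 5.77, 4.71 and 6.82 CPM in libraries labelled Bbs2-/- GCSi, 10.5, 4.69, 4.04 and 3.35 CPM in those labelled Bbs2-/-, and 3.81, 3.45, 4.98 and 4.53 CPM in WT, on 51 to 203 counts per library. Library 1 labelled Bbs2-/- was the highest of the 12, while libraries 2 to 4 of that group lay close to or within the range of WT. The log2 fold change was 0.43 ± 0.32 in Bbs2-/- against WT (edgeR adjusted p = 0.315) and 0.08 ± 0.32 in Bbs2-/- GCSi against Bbs2-/- (adjusted p = 0.861). Without library 1 labelled Bbs2-/- the first turned to -0.05 (adjusted p = 0.871) and the second was 0.56 (adjusted p = 0.068). The second turned to -0.02, -0.07 and -0.12 without library 2, 3 or 4 labelled Bbs2-/-, and to -0.03 with scaling by library size alone. No direction is given for Nqo1.

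Library 1 labelled Bbs2-/- stood apart in the same way at other NRF2 target genes, a pattern noticed after the values were seen. Of 28 target genes tested, 3 of them among the 10 enzymes, 23 (82.1%) had their highest value of the 4 libraries of that group in library 1, beside 27.7% of all genes tested. The median log2 ratio of library 1 to the mean of libraries 2 to 4 was 0.64 over the targets and 0.01 over all genes. Hmox1, which degrades heme, read 446 CPM there and 172, 177 and 191 CPM in libraries 2, 3 and 4. Srxn1, which restores overoxidized peroxiredoxins, read 193 CPM and then 94.7, 89.9 and 69.9 CPM, and Gclc read 55.4 CPM and then 29.0, 31.4 and 24.5 CPM. Nfe2l2 itself did not stand apart, at 141 CPM in library 1 and 156, 135 and 146 CPM in libraries 2, 3 and 4. The library's summed macrophage markers, 10200 CPM, and fat cell markers, 16600 CPM, were within the range of the other 3. Mitochondrially encoded genes took 4.46% of its counts, against 3.35 to 3.65% in the other 3, and the part of RNA quality or any other difference was not tested. Library 1 was also highest in Bbs2-/- GCSi and in WT for the targets Hmox1, Srxn1, Txnrd1, Gclc and Gclm. For Prdx1 this held in WT only, and for Nqo1 in neither. Hmox1 read 113 CPM in WT library 1, against 33.2 to 43.4 CPM in the rest of WT. Of 13 genes for glutathione synthesis and recycling, some of them targets, 10 (76.9%) were highest in library 1 labelled Bbs2-/-.

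**Figure D3:**
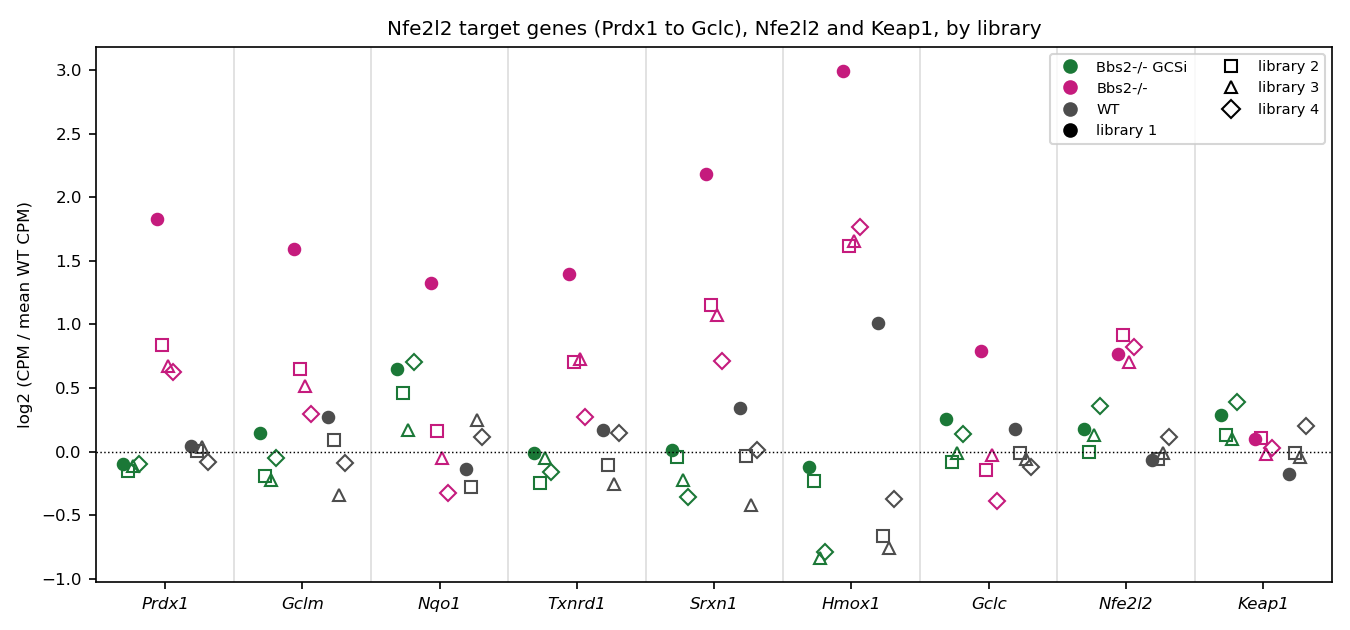
Log2 of the ratio of CPM to the WT mean (y axis) for 7 NRF2 target genes, Nfe2l2 and Keap1 (x axis) in each library (points, coloured by group, with filled circles for library 1). Library 1 labelled Bbs2-/- is the highest point for all 7 targets, reaching 446 CPM for Hmox1, and lies among its group for Nfe2l2 at 141 CPM and Keap1 at 53.4 CPM.

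Of the pathway's 12 regulators tested, 3 rose and 0 fell in Bbs2-/- against WT, beside 19.6% and 19.7% of all genes tested. In Bbs2-/- GCSi against Bbs2-/-, 0 rose and 4 fell, beside 18.5% and 18.8%. With scaling by library size alone 6 rose in Bbs2-/- against WT. Nfe2l2 averaged 93.2 ± 9.56 CPM in Bbs2-/- GCSi, 144 ± 9.0 CPM in Bbs2-/- and 82.6 ± 4.91 CPM in WT (SD, n = 4 each), with no overlap of Bbs2-/- with either group. Its log2 fold change was 0.80 ± 0.09 in Bbs2-/- against WT (edgeR adjusted p = 0.000107) and -0.63 ± 0.09 in Bbs2-/- GCSi against Bbs2-/- (adjusted p = 0.000342), and 0.82 and -0.65 without library 1 labelled Bbs2-/-. Bach1, a repressor that competes for the same elements, changed by 1.13 and then -1.07 (adjusted p = 0.00123 and 0.00175). Bach2, its relative in immune cells, changed by 1.08 and then -0.96 (adjusted p = 0.00293 and 0.00548). Keap1 gave log2 fold changes of 0.06 and 0.18 (adjusted p = 0.675 and 0.164).

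The 28 NRF2 targets did not move one way. In Bbs2-/- against WT 9 rose and 5 fell, beside 19.6% and 19.7% of all genes tested. In Bbs2-/- GCSi against Bbs2-/- 7 rose and 10 fell, beside 18.5% and 18.8%. Without library 1 labelled Bbs2-/- the counts were 8 and 7, then 7 and 9. Without WT libraries 2 and 3, 4 rose in Bbs2-/- against WT. Hmox1 changed by 2.13 ± 0.45 and then -2.59 ± 0.46 (edgeR adjusted p = 0.00347 and 0.00135), Srxn1 by 1.39 and then -1.53 (adjusted p = 0.00245 and 0.00146), and Txnrd1, the cytosolic thioredoxin reductase, by 0.83 and then -0.95 (adjusted p = 0.0056 and 0.00287). Without library 1 labelled Bbs2-/- the same 3 genes changed by 1.68, 0.99 and 0.58 in Bbs2-/- against WT (adjusted p = 0.00888, 0.00182 and 0.00885). Other targets went the opposite way. Gsta3, a transferase that joins glutathione to electrophiles, averaged 134 ± 31.0 CPM in Bbs2-/- GCSi, 29.1 ± 10.5 CPM in Bbs2-/- and 123 ± 40.6 CPM in WT, changing by -2.08 and then 2.20 (adjusted p = 0.000294 and 0.000237). Gsta4, which acts on lipid aldehydes, changed by -2.52 in Bbs2-/- against WT (adjusted p = 0.000197). Aox1, aldehyde oxidase, changed by -1.14 and then 1.19 (edgeR adjusted p = 0.000222 and 0.000183). The lists share genes. Of the 28 targets, 16 also stand in another list, as do 3 of the 19 glutathione S-transferases listed below, and Gsta3 is in both.

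Glutathione S-transferases as a family stood with catalase and not with Prdx1. Of 17 tested from a list of 19, 14 fell and 0 rose in Bbs2-/- against WT, with a median log2 fold change of -1.21 beside -0.02 over all genes, and 14 rose and 0 fell in Bbs2-/- GCSi against Bbs2-/-, with a median of 1.05 beside 0.03. Gstm2 averaged 178 ± 14.6 CPM in Bbs2-/- GCSi, 85.9 ± 8.54 CPM in Bbs2-/- and 185 ± 23.5 CPM in WT (SD, n = 4 each), and changed by -1.11 and then 1.05 (edgeR adjusted p = 6.48e-05 and 7.85e-05). Gstz1, which also serves tyrosine breakdown, averaged 1020 ± 93.8 CPM in Bbs2-/- GCSi, 435 ± 35.4 CPM in Bbs2-/- and 1070 ± 257 CPM in WT. Close paralogs in this family may share reads, so single members are less certain than the count.

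**Figure D4:**
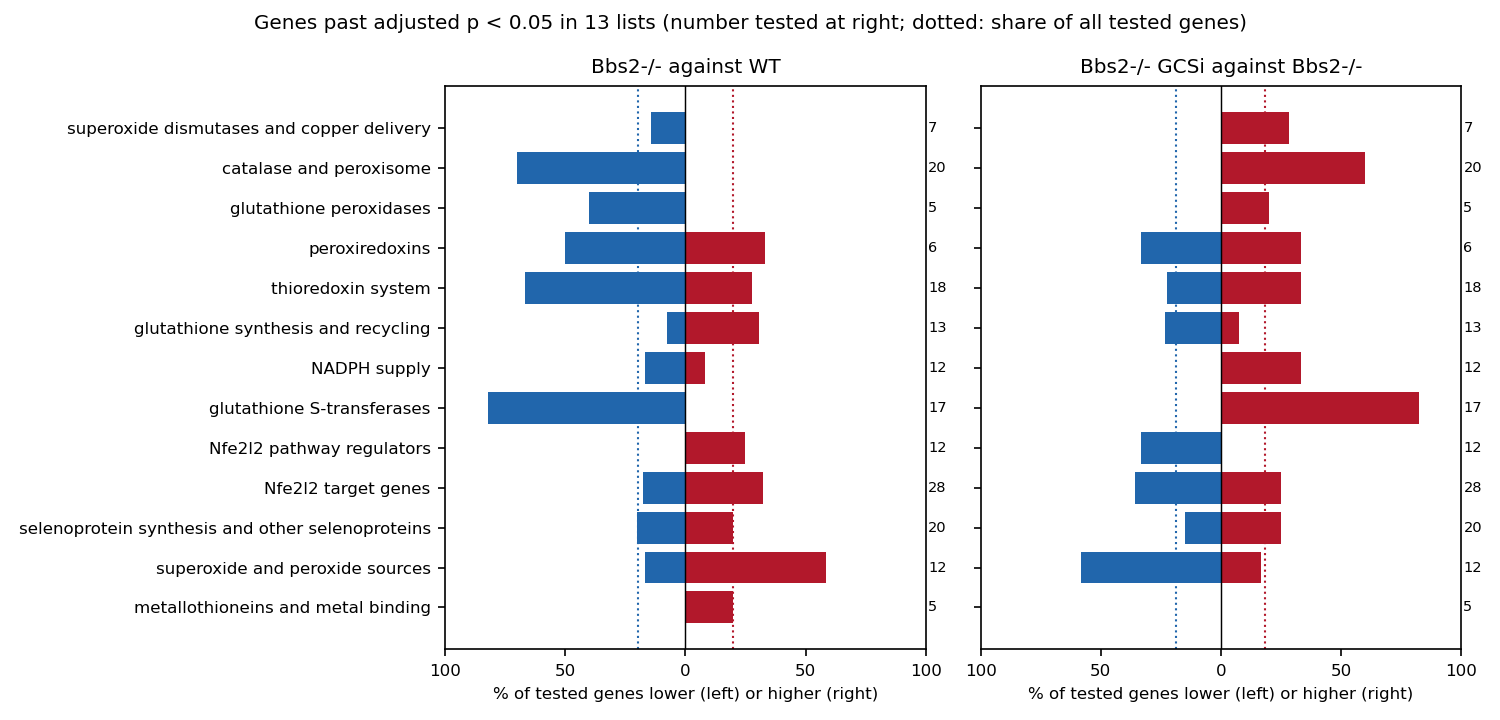
Percent of the tested genes of 13 lists (rows, number tested at the right) that passed an adjusted p of 0.05 and were lower (blue, left) or higher (red, right), in Bbs2-/- against WT and in Bbs2-/- GCSi against Bbs2-/- (panels); dotted lines give the share of all tested genes. Glutathione S-transferases and the peroxisome list lie on one side only, 14 of 17 and 14 of 20 lower in the first panel, and targets of NRF2 lie on both sides.

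Sources of superoxide and peroxide also changed. Of 12 tested, 7 rose and 2 fell in Bbs2-/- against WT, and 2 rose and 7 fell in Bbs2-/- GCSi against Bbs2-/-. Cyba, the membrane subunit of NADPH oxidase in phagocytes and other cells, averaged 35.4 ± 11.2 CPM in Bbs2-/- GCSi, 156 ± 29.6 CPM in Bbs2-/- and 39.5 ± 14.5 CPM in WT (SD, n = 4 each), and changed by 1.98 and then -2.14 (edgeR adjusted p = 0.000348 and 0.00025). The 2 genes that fell in Bbs2-/- were amine oxidases that release peroxide. Aoc3, abundant in fat cells, changed by -1.64 and then 1.45, and Maob, of the mitochondrial outer membrane, by -1.38 and then 1.29 (adjusted p = 0.000129, 0.000226, 0.000133 and 0.000164).

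Of the thioredoxin system, 5 of 18 genes rose and 12 fell in Bbs2-/- against WT, and 6 rose and 4 fell in Bbs2-/- GCSi against Bbs2-/-. Those that fell in Bbs2-/- against WT numbered 7 with scaling by library size alone, 4 without WT libraries 2 and 3, and 6 and 7 without library 2 or 3 labelled Bbs2-/-. The sestrins, which are stress-induced proteins of peroxide and nutrient signalling, split. Sesn1 averaged 46.3 ± 3.96 CPM in Bbs2-/- GCSi, 102 ± 27.6 CPM in Bbs2-/- and 46.0 ± 6.8 CPM in WT, and changed by 1.14 and then -1.14 (edgeR adjusted p = 0.000395 and 0.000417), while Sesn2 changed by -0.98 and then 0.97 (adjusted p = 0.000352 and 0.00038). NADPH feeds both thiol systems. Of 12 genes for its supply, 1 rose and 2 fell in Bbs2-/- against WT, beside 19.6% and 19.7% of all genes tested. In Bbs2-/- GCSi against Bbs2-/-, 4 rose and 0 fell, beside 18.5% and 18.8%. Idh2 and Me1, which make NADPH in mitochondria and cytosol, were the 2 that fell, by 0.77 and 0.65 on the log2 scale (adjusted p = 0.00241 and 0.00586). The number that fell became 5 without WT library 1 and with DESeq2, and 4 without library 1 labelled Bbs2-/-. The 4 that rose in Bbs2-/- GCSi against Bbs2-/- became 2 without WT library 2 or 4, without library 2, 3 or 4 labelled Bbs2-/-, without library 3 or 4 labelled Bbs2-/- GCSi, and with the replicate block; with scaling by library size alone 2 rose and 2 fell.

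Gpx1, Gpx3 and Gpx4 are selenoproteins. Of 20 other genes for selenoproteins and their synthesis, 4 rose and 4 fell in Bbs2-/- against WT, near the 19.6% and 19.7% of all genes tested. In Bbs2-/- GCSi against Bbs2-/-, 5 rose and 3 fell, beside 18.5% and 18.8%. With scaling by library size alone the counts became 6 that rose and 1 that fell, then 3 and 8, and with DESeq2 the last count was 6. The 4 that fell in Bbs2-/- against WT became 1 without WT library 3, without library 2 or 3 labelled Bbs2-/- or without WT libraries 2 and 3, and 2 without WT library 4. The 5 that rose in Bbs2-/- GCSi against Bbs2-/- became 3 without library 1, 2 or 3 labelled Bbs2-/- or library 4 labelled Bbs2-/- GCSi. Selenop, the selenium carrier of plasma, averaged 1070 ± 150 CPM in Bbs2-/- GCSi, 2530 ± 352 CPM in Bbs2-/- and 1160 ± 358 CPM in WT (SD, n = 4 each), and changed by 1.13 and then -1.24 (edgeR adjusted p = 0.0012 and 0.000737). Selenow, a small thiol-redox selenoprotein, changed by -1.07 and then 0.92 (adjusted p = 0.000824 and 0.00196). Of 7 genes for dismutases and copper delivery, Sod1 was the 1 that fell in Bbs2-/- against WT, and without WT library 1 there were 2. Of 5 metallothionein and metal-binding genes tested, 1 rose there, Hp, encoding haptoglobin, by 1.14 (adjusted p = 0.00559), and 0 were called by edgeR in Bbs2-/- GCSi against Bbs2-/-. There, 2 fell with DESeq2 and without library 2 labelled Bbs2-/- or library 1 labelled Bbs2-/- GCSi, and 3 fell with scaling by library size alone. In Bbs2-/- GCSi against WT, 0 genes of any of these 13 lists were called.

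Cell type markers moved with these genes. Summed over 14 macrophage markers, the level was 797 to 2170 CPM in libraries labelled Bbs2-/- GCSi, 7530 to 10600 CPM in those labelled Bbs2-/- and 874 to 3040 CPM in WT; 14 of 14 rose in Bbs2-/- against WT and 14 of 14 fell in Bbs2-/- GCSi against Bbs2-/-. Over 10 fat cell markers it was 28500 to 43100 CPM in Bbs2-/- GCSi, 14400 to 17800 CPM in Bbs2-/- and 25600 to 45000 CPM in WT, with 9 of 10 lower in Bbs2-/- against WT and 9 of 10 higher in Bbs2-/- GCSi against Bbs2-/-. Other lists moved as well. In Bbs2-/- against WT, 5 of 5 B and plasma cell markers, 3 of 3 neutrophil markers tested, 5 of 8 fibroblast markers and 3 of 7 T and NK cell markers were higher, 4 of 6 smooth muscle markers were lower and 1 was higher, and 3 of 6 ciliated-cell markers and 1 of 4 brown fat markers were lower. In Bbs2-/- GCSi against Bbs2-/-, 3 of 5 B and plasma cell, 2 of 3 neutrophil, 5 of 8 fibroblast, 2 of 7 T and NK cell and 1 of 4 brown fat markers were lower, and 4 of 5 red blood cell, 3 of 7 endothelial, 2 of 6 ciliated-cell and 1 of 6 smooth muscle markers were higher. The counts of the smaller lists moved with single libraries, those of neutrophil markers in Bbs2-/- against WT to 1 without WT library 2 or 3. Those of ciliated-cell markers went as low as 0 in both comparisons when single libraries were left out. They were also 0 in both without all the libraries with Foxj1 counts. That outcome was largely fixed by the choice of libraries, since Foxj1 is among these markers. No macrophage or fat cell marker was at 0 in all libraries of a group. In bulk tissue, fewer cells of a type and less RNA per cell cannot be told apart, and the part of cell makeup in the changes of the 10 enzymes was not tested. Mitochondrially encoded genes also separated the groups, with 5.62 to 8.44% of counts in Bbs2-/- GCSi, 3.35 to 4.46% in Bbs2-/- and 5.19 to 9.39% in WT. With those genes left out of the counts, each of the 10 enzymes kept its direction and its side of the threshold in all 3 comparisons. TMM scaling already allows for the share of counts those genes take, so this outcome was nearly fixed beforehand. It does not bear on RNA quality or cell makeup. WT library 1, the lowest of its group for Sod1, Sod2, Sod3, Cat, Gpx1 and Gpx4, had the lowest fat cell sum of WT, 25600 CPM, and the highest macrophage sum, 3040 CPM.

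Ratios between 2 related genes within a library do not depend on scaling. The values are log2 ratios of estimated counts, in which gene length stays, so only differences between groups are read. Gclm over Gclc averaged -0.03 ± 0.05 in Bbs2-/- GCSi, 0.83 ± 0.12 in Bbs2-/- and 0.11 ± 0.18 in WT (SD, n = 4 each), and the 4 libraries labelled Bbs2-/- (0.67 to 0.92) were above all others. Library 1 labelled Bbs2-/- did not stand apart here, since both subunits were high in it. The difference was 0.72 in Bbs2-/- against WT and -0.86 in Bbs2-/- GCSi against Bbs2-/-, each with p = 0.0286 in an exact two-sided permutation test, the smallest p that 4 against 4 allows. Adjusted over the 15 ratio tests this became 0.0857, and none of them passed 0.05. The overlap of Gclm with Gm17494 bears on this ratio as well.

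Gpx4 over Gpx1 averaged 0.46 ± 0.36 in Bbs2-/- GCSi, -0.38 ± 0.16 in Bbs2-/- and 0.17 ± 0.11 in WT. The groups did not overlap in Bbs2-/- against WT (difference -0.55) or in Bbs2-/- GCSi against Bbs2-/- (0.84), both with exact permutation p = 0.0286 (adjusted 0.0857). Sod2 over Sod1 averaged -0.67 ± 0.40 in Bbs2-/- GCSi, 0.10 ± 0.29 in Bbs2-/- and -1.08 ± 0.06 in WT, a difference of 1.18 in Bbs2-/- against WT (exact p = 0.0286, adjusted 0.0857) and of -0.78 in Bbs2-/- GCSi against Bbs2-/- (exact p = 0.0571, adjusted 0.143). Libraries 1 to 3 labelled Bbs2-/- GCSi lay above WT in this ratio, and library 4 lay within its range. Sod3 over Sod1 and Gpx3 over Gpx1 gave unadjusted p from 0.114 to 1.

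**Figure D5:**
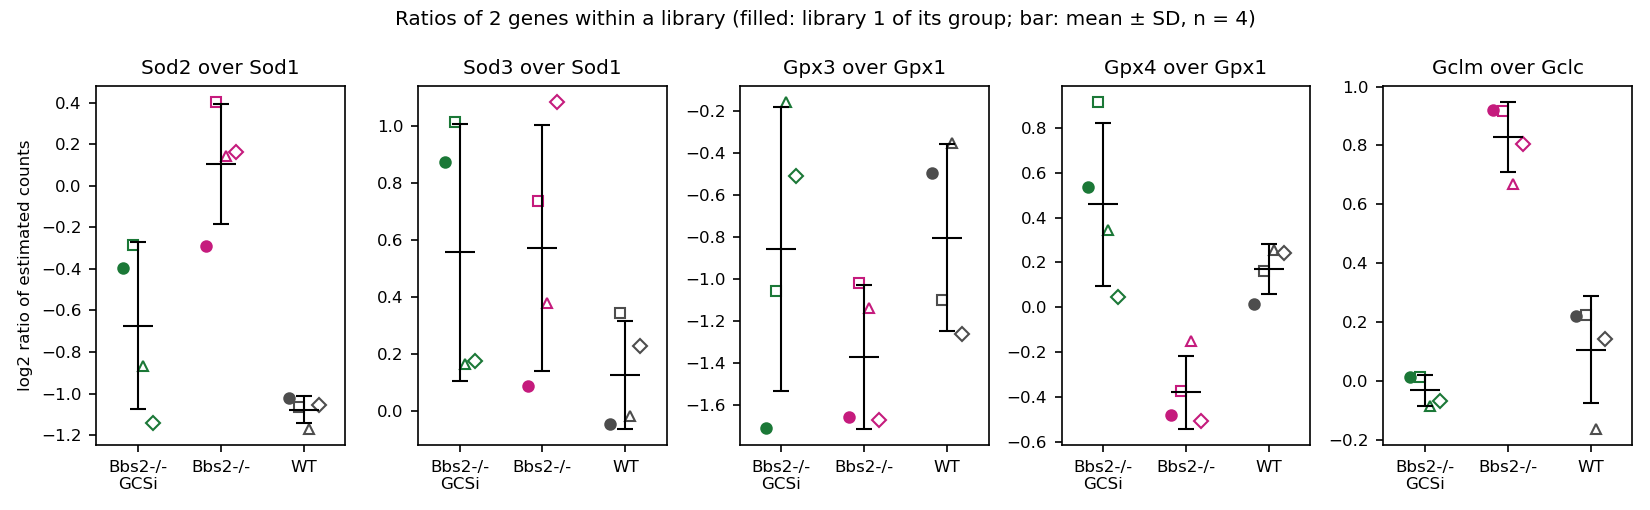
Log2 ratio of the estimated counts of 2 genes within a library (y axis, a scale of its own in each panel) for 5 pairs (panels) in the 3 groups (x axis), with points for libraries and bars for the mean and SD (n = 4). Gclm over Gclc sits at 0.67 to 0.92 in the libraries labelled Bbs2-/- and at -0.16 to 0.22 in the other 8.

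Compared per length, on the scale of the deposited log2 FPKM values, the order of levels also differed. In Bbs2-/- GCSi the highest were Gpx4 (mean 9.97 ± 0.16), Gpx1 (9.58 ± 0.21) and Sod1 (9.27 ± 0.21), and each overlapped the next. In Bbs2-/- the order began with Gpx1 (9.62 ± 0.17), Prdx1 (9.45 ± 0.58) and Gpx4 (9.15 ± 0.07), which overlapped in turn, with Sod1 (8.52 ± 0.11) below them without overlap. In WT, Gpx4 (10.16 ± 0.30) and Gpx1 (10.08 ± 0.20) overlapped, and so did Gpx4 and Sod1 (9.48 ± 0.32), while Gpx1 lay above Sod1 without overlap. Prdx1 held rank 2 of 10 in Bbs2-/- and rank 5 in both other groups. Its rank in Bbs2-/- leans on library 1, at 10.3. In libraries 2, 3 and 4 of that group Prdx1 read 9.33, 9.19 and 9.0, beside 9.1, 9.15 and 9.26 for Gpx4. The lower end was the same in the 3 groups, with Sod3, Sod2, Gclm and Nqo1 in that order. Nqo1 averaged 2.37 ± 0.18 in Bbs2-/- GCSi, 2.17 ± 0.57 in Bbs2-/- and 1.99 ± 0.18 in WT (SD, n = 4 each).

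The genes whose levels followed each enzyme most closely were found among 13688 genes by the root mean square difference of centred log2 CPM over the 12 libraries, in which 0 is an identical pattern. For Sod1 they were Ybx3 (0.07) and Ndufb8 (0.08), for Cat Hadh (0.10) and Sh3glb2 (0.12), and for Gpx4 Tlcd1 and Dbi (0.11 each). For Prdx1 they were Esd (0.15) and Txnrd1 (0.19), and for Gclm Txnrd1 (0.15) and Anxa4 (0.16). Prdx1 and Gclm thus shared a near neighbour. Nqo1 had no close one, with Csrnp2 (0.27) and Gclc (0.28). For Gpx1 they were S100a10 (0.09) and Ypel3 (0.12), for Gpx3 Gpd2 and Txnip (0.23 each), for Sod2 Pdgfa and Timm8a1 (0.12 each), and for Sod3 Fam213b and Unc119 (0.16 each). The median over all genes was 0.39 to 0.65 for the 10 enzymes.

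In Bbs2-/- GCSi against WT, none of the 10 enzymes was called by edgeR or by DESeq2, and Gpx1 was the 1 with an unadjusted p under 0.05. Which enzymes had such a p in edgeR depended on the setting. They were Gpx1 and Nqo1 with only the 2 groups compared or without library 1 labelled Bbs2-/-. Without WT library 1 they were Gpx1, Gpx4 and Sod1. There were 0 without WT libraries 2 and 3 or without the libraries with Foxj1 counts. A missing call does not show equal levels, and the 95% intervals bound what the data allow. The log2 fold change of Cat was -0.16 (-0.57 to 0.25), that of Gpx4 -0.16 (-0.46 to 0.15), that of Sod1 -0.20 (-0.55 to 0.14) and that of Gclm -0.07 (-0.61 to 0.47). Those of Nqo1 and Gpx3 were the least certain, at 0.51 (-0.19 to 1.20) and -0.37 (-1.06 to 0.31). All these intervals use the spread shared by the 12 libraries, so libraries labelled Bbs2-/-, which are not compared here, enter them. For Nqo1 the SD was 0.95 CPM in Bbs2-/- GCSi, 3.26 CPM in Bbs2-/- and 0.691 CPM in WT. Over all genes 41 of 15968 were called by edgeR in this comparison, with 1697 at an unadjusted p under 0.05.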

How the data were processed

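RNA was taken from flash-frozen adipose tissue with TRIzol and columns, and a stranded mRNA kit was used for the libraries, as the labels' protocols state. The authors deposited estimated counts per gene, with no scaling, since totals differ between libraries; 92.96 to 94.17% of values were whole within 1e-06. The authors also deposited log2 FPKM values for 18810 genes, whose upper quartile is 3.96 throughout. Per the submitters' processing notes, mm10 was the build. No aligner, counter or strand setting is named in those sources.

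Symbols and coordinates came from GENCODE M21, in which 52207 of the 53431 identifiers were found, and promoter sequences from RefSeq (GRCm38.p6). Estimated counts were rounded, and edgeR 4.0.16 (R 4.3.3) gave the tests (TMM, filterByExpr by group, robust quasi-likelihood test, all 12 libraries in 1 fit, Benjamini-Hochberg over 15968 genes, threshold 0.05); the common biological coefficient of variation was 0.29. A log2 CPM used a prior count of 2. The fit was also run on simulated counts with far fewer changed genes than were called in the comparisons with Bbs2-/-, so that run does not test their setting. DESeq2 1.42.0, limma 3.58.1, other scalings and filters, a replicate block and leaving out libraries were the alternatives. Replicate libraries differed by more than sampling noise (chi-square per degree of freedom of 17.6 to 84.0), so each counted once. Genes named beside the 10 enzymes are up to 3 of each list with the smallest p among those called, plus Gclc, Hmox1, Txnrd1, Srxn1, Nfe2l2, Keap1 and Bach1, and the 2 nearest genes of each enzyme. The members and lists were chosen with earlier results of these data known.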

Additional observations from a re-analysis of the deposited data

Results flagged for a closer look

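In 5 of 30 groups of 4 libraries, the lowest or the highest library lay farther from the other 3 than Dixon's test at 95% allows; chance gives about 1 in 20. Prdx1 had 1770 CPM in library 1 labelled Bbs2-/-, against 767 to 889 CPM in the other 3. Gpx4 had 524 CPM in library 4 labelled Bbs2-/-, against 456 to 465 CPM in the other 3. The level of Cat was 1230 CPM in library 4 labelled Bbs2-/- GCSi, against 895 to 951 CPM in the other 3. WT library 1 was low in 2 genes, with 146 CPM for Sod2, against 214 to 219 CPM in the other 3, and 670 CPM for Gpx4, against 952 to 1010 CPM.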

How the results depend on the processing

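Apart from leaving out single libraries, 374 of 390 values of the 10 enzymes kept their direction and their side of the threshold, 10 lost a call, 3 gained one and 3 turned their sign. Leaving out each library in turn, 337 of 360 did, 13 lost a call, 3 gained one and 7 turned. Part of the 360 values leave out a library of the group not compared. That hardly changes a fold change, so its direction was nearly fixed beforehand there. Gclm lost its call in Bbs2-/- against WT without WT libraries 2 and 3 (0.76, edgeR adjusted p = 0.125), without the 4 libraries with Foxj1 counts (0.95, adjusted p = 0.0731) and when summed with overlapping genes (an alternative chosen after seeing the data), so that the number of enzymes called higher was 1 in each case. It was 1 to 2 when single libraries were left out. Without the Foxj1 libraries Gclm also lost its call in Bbs2-/- GCSi against Bbs2-/- (-0.96, adjusted p = 0.0781), leaving 1 enzyme lower. Signs turned at values near 0. Nqo1 gave -0.03 in Bbs2-/- GCSi against Bbs2-/- with library size scaling and -0.12 to 0.56 when single libraries were left out, and -0.05 to 0.64 in Bbs2-/- against WT. Gpx1 gave -0.18 to 0.01 in Bbs2-/- GCSi against Bbs2-/-. In Bbs2-/- GCSi against WT, Gclm gave -0.17 to 0.03 when single libraries were left out and 0.06 with limma on log2 FPKM, Cat gave 0.15 without WT libraries 2 and 3, and Gclm over Gclc gave 0.01 on log2 FPKM. Genes called in Bbs2-/- against WT numbered 3417 without WT libraries 2 and 3, against 6263. In Bbs2-/- GCSi against WT they numbered 282 with DESeq2, 2 with only the 2 groups compared, 9 with the replicate block, 1 without WT libraries 2 and 3, 2 without the Foxj1 libraries and 3 to 49 when single libraries were left out, against 41; the cause was not tested. The labels do not say whether samples of the same number share more than that number. Their deviations correlated at 0.0999 to 0.3081 between Bbs2-/- GCSi and Bbs2-/- and at -0.1488 to 0.2775 in the other comparisons. Samples 1, 3 and 4 of Bbs2-/- GCSi correlated best with their own number in Bbs2-/-, and sample 2 with its own number in WT. No sample of Bbs2-/- did so with WT. With the replicate block as a term, the same 6, 6 and 0 enzymes were called. Ratio tests with fewer than 4 libraries in a group cannot reach the threshold and are values without a test. Depth limits Nqo1 most, at 51 to 203 counts per library.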
